A study of Bos taurus with 6 samples.

Results

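Genes of bone morphogenetic protein (BMP), growth and differentiation factor (GDF) and activin signalling were followed in bovine articular chondrocytes in which the transcription factor CREB5 was switched on. The set was defined by symbol and covers ligands, receptors, secreted and membrane antagonists, SMAD mediators and the ID target genes. Of its 46 symbols, 45 had a row among the 27607 Ensembl genes of the deposited table. The Dox+ group (3 libraries) was made from deep zone chondrocytes carrying a lentiviral, doxycycline-inducible bovine CREB5, given doxycycline during 3 days of culture, at 1 µg/ml by the treatment protocol (another label writes the same number with mg/ml). The Dox- group (3 libraries) carried the same virus and got no doxycycline. Both groups had been selected with G418 as infected populations, and both were cultured on low attachment plastic with 10% FBS, 20 ng/ml TGFb2 plus 100 ng/ml TGFa. Cells came from 3 knees collected independently. No library of cells that lacked the virus but received doxycycline was analysed here, so the effect of the drug and that of CREB5 cannot be told apart. TGFb2 signals through receptors and SMADs related to those of the activins, and it was present in every library.

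BMPs, GDFs and activins are secreted dimers of the TGF-beta superfamily. They bring type I and type II receptor kinases together, and the type I receptor phosphorylates SMAD proteins that enter the nucleus with SMAD4. SMAD1, SMAD5 and SMAD9 carry the BMP signal, and ID genes are among its best known direct targets. Outside the cell, proteins such as noggin, chordin, gremlin and follistatin bind the ligands and keep them from their receptors. In the skeleton these ligands are known for joint formation, chondrocyte maturation and bone formation.

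Values below are normalized counts, that is, reads per gene divided by 1 size factor per library. Depth ran between 20063379 reads (Dox+ 3) and 122366790 reads (Dox+ 2). A gene with 3 reads, taken as the limit that a count of 0 allows, would have 1.32 to 6.98 normalized counts in Dox+ libraries and 1.83 to 4.44 in Dox- libraries. CREB5 itself had 20935, 12413 and 21964 normalized counts in Dox+ 1, 2 and 3, against 510, 308 and 330 in Dox- 1, 2 and 3, so all libraries matched their labels. Fold changes are Dox+ over Dox- on the scale of log2(normalized count + 1). A gene was called at an adjusted p under 0.05 in limma, over all 13180 genes with a mean of at least 10. Libraries with the same number deviated from their group means together, though least so for number 3. Values from a fit with the replicate block are therefore given for each named gene whose call they change.

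The ligand genes BMP2, BMP3, BMP6 and INHBA rose in Dox+ cells together with the activin antagonist gene FST and the mediator gene SMAD1. The chordin gene CHRD and the inhibin subunit gene INHBE fell, and BMP4, BMP5, INHA and INHBB did not pass. Of 40 members with enough reads to be tested, 6 were higher (BMP2, BMP3, BMP6, INHBA, FST and SMAD1), 2 were lower and 32 did not pass. That is 20.0% of the tested members, beside 2.88% of all genes tested (2.52% higher and 0.357% lower). With the replicate block 8 members were higher and 2 were lower, or 25.0%, beside 6.51% of all genes (4.86% higher and 1.65% lower). The groups did not overlap for 14 members, 12 of them higher and 2 lower in Dox+ cells, where 8.88% of all genes were wholly higher and 6.29% wholly lower. Tested members had a median of 0.33 on the log2 fold change scale, and all genes -0.00358. The members were picked with earlier results of these data known, so these counts describe the set and do not test it. BMP3 passed the filter on low values through the Dox+ libraries alone. Other tools called 2.6% (edgeR), 5.93% (edgeR with the block), 5.33% (DESeq2) and 7.96% (DESeq2 with the block) of all genes in either direction. At an unadjusted p under 0.05, limma had 9 members higher and 2 lower, beside 7.02% of all genes higher and 3.57% lower. With Dox+ 3 left out, 3 members were higher and 0 lower. Leaving out Dox+ 1, Dox- 2 or Dox- 3 gave 5 higher and 0 lower each. The calls of BMP6 and INHBA remained with any 1 library left out. That of BMP3 remained too, but its Dox- libraries all had 0 reads, so leaving out 1 of them could not change its estimate. The plot of fold changes by role shows the 40 members side by side.

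**Figure D1:**
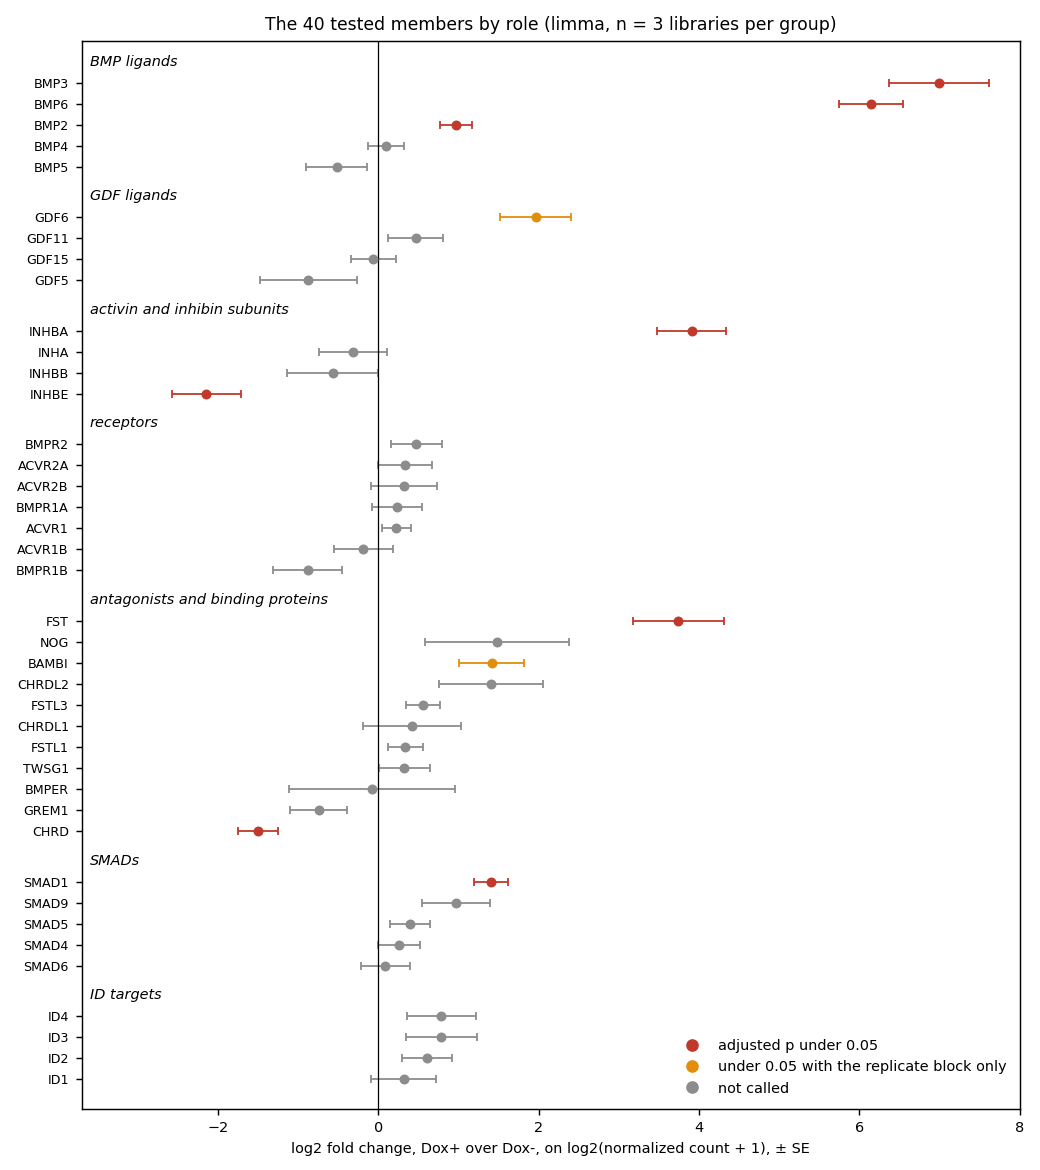
Log2 fold change (x axis, Dox+ over Dox- on log2(normalized count + 1)) of the 40 tested members, grouped by role down the y axis; points are limma estimates, bars are ± 1 SE, n = 3 libraries per group. Red points (8 genes) were called, orange points (GDF6 and BAMBI) were called with the replicate block only, and the estimate for BMP3 depends on the added 1 because no Dox- read was counted.

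Among BMP ligands, 3 of 5 tested genes rose and 0 fell, beside 2.52% and 0.357% of all genes. BMP6, a ligand known for bone formation and for iron regulation by the liver, had 843, 1593 and 1321 normalized counts in Dox+ 1, 2 and 3, against 10.4, 16.3 and 24.5 in Dox- 1, 2 and 3. The lowest Dox+ library was above the highest Dox- library by a wide margin. BMP6 was 70.7-fold higher (log2 fold change 6.14, SE 0.40, limma adjusted p = 9.3e-05).

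BMP3 (ENSBTAG00000017642), a member of the family known to counteract bone-forming BMPs, was detected in Dox+ cells alone. It had 134, 83.9 and 181 normalized counts in Dox+ 1, 2 and 3, from 347 reads in all, and 0 reads in each Dox- library. Set against that 3-read limit in the Dox- libraries, it was at least 49.2-fold higher (limma adjusted p = 0.00046). BMP2, a strongly chondrogenic and osteogenic ligand, had 2736, 2701 and 3314 normalized counts in Dox+ 1, 2 and 3, against 1836, 1396 and 1265 in Dox- 1, 2 and 3. The groups did not overlap, but the change was small, 1.96-fold (SE 0.20 on the log2 scale, limma adjusted p = 0.040, and 0.016 with the replicate block). Its adjusted p was 0.118, 0.0726 or 0.222 with Dox+ 1, 2 or 3 left out, 0.156 or 0.116 with Dox- 2 or 3 left out, and 0.0517 in edgeR.

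The other BMP ligand genes did not pass. BMP4, the close relative of BMP2, had 1149, 1237 and 1258 normalized counts in Dox+ 1, 2 and 3, with 925, 1031 and 1529 in Dox- 1, 2 and 3, so the Dox- libraries spread around the Dox+ ones (log2 fold change 0.10, SE 0.23). BMP5, a relative of BMP6, had 59.2, 134 and 90.7 normalized counts in Dox+ 1, 2 and 3, with 113, 151 and 126 in Dox- 1, 2 and 3, lower in each same-numbered pair with overlapping groups (log2 fold change -0.52, SE 0.38, limma adjusted p = 0.79). BMP7 stayed under the filter, at 0 to 10.2 normalized counts in Dox+ libraries and 1.83 to 7.97 in Dox- libraries. No row carries the symbol BMP8B; an unnamed row (ENSBTAG00000053451) with the Entrez number that RefSeq gives to BMP8B had 5 reads over the Dox+ libraries and 12 over the Dox- libraries. Of all reads counted for the 6 BMP ligand genes with a row, BMP6 held 17.1%, 27.7% and 21.4% in Dox+ 1, 2 and 3, against 0.360%, 0.626% and 0.830% in Dox- 1, 2 and 3. BMP4 held 20.4% to 23.3% in Dox+ libraries and 32.0% to 51.9% in Dox- libraries. Reads also grow with transcript length, so such shares compare libraries and not genes.

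**Figure D2:**
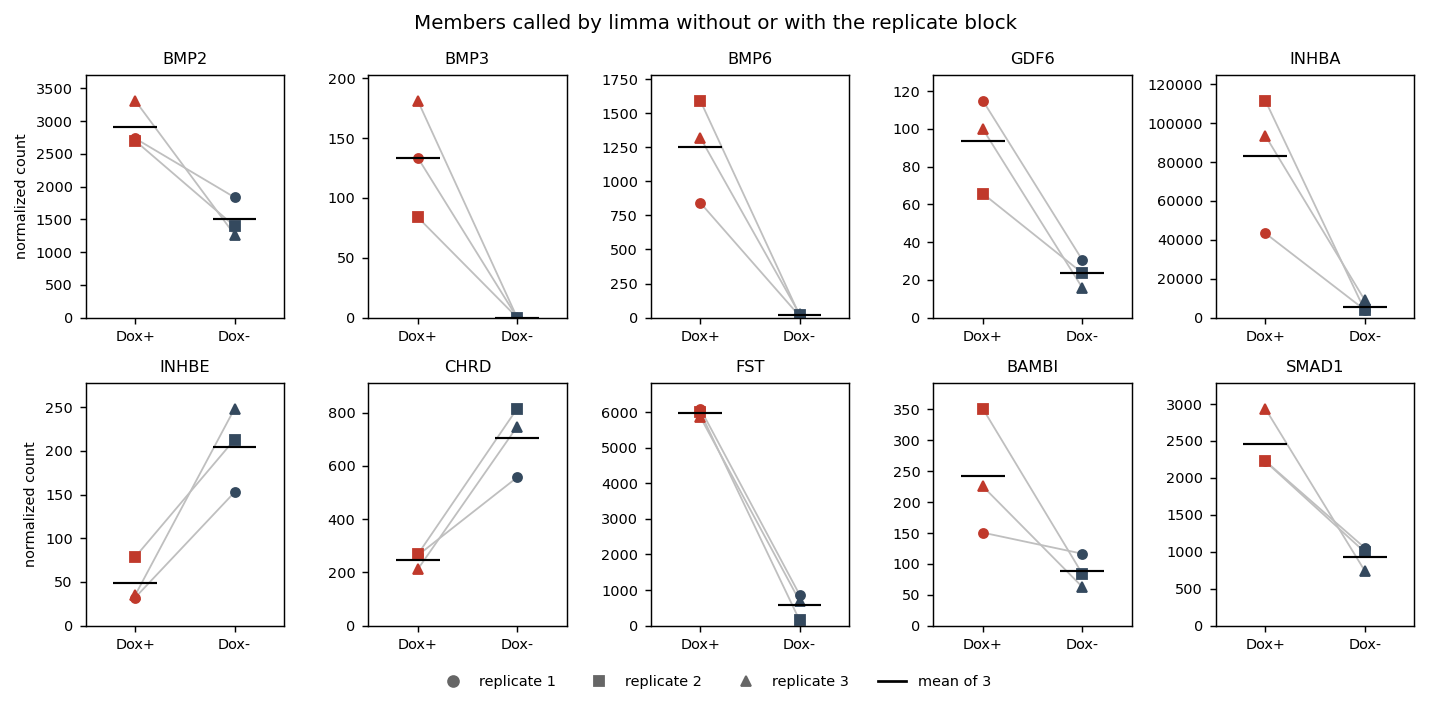
Normalized counts (y axis, linear, from 0) of the 10 members called by limma without or with the replicate block, in Dox+ (red, left) and Dox- (dark, right) libraries; marker shapes are replicates, grey lines join the same number and black bars are means of 3. BMP3 has no Dox- reads, INHBA lies between 43345 and 111599 in Dox+ and between 3723 and 9011 in Dox-, INHBE and CHRD are the only panels where Dox+ is lower, and FST in Dox+ cells lies between 5865 and 6096.

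Of the 4 genes nearest to BMP3, 3 were also called higher in Dox+ cells, and PRKG2, next to it on one side, was not. This was looked at after its values were known, taking the nearest 2 protein-coding genes with a row on each side, by RefSeq gene order on ARS-UCD2.0. FGF5, a fibroblast growth factor, had 1276, 505 and 1074 normalized counts in Dox+ 1, 2 and 3, against 261, 117 and 157 in Dox- 1, 2 and 3 (5.22-fold higher, limma adjusted p = 0.017). CFAP299, which lies between FGF5 and BMP3, had 108, 50.8 and 67.4 against 7.36, 1.48 and 7.95, 12.8-fold higher (limma adjusted p = 0.021). Like BMP3, it passed the filter on low values through the Dox+ libraries alone. On the other side, RASGEF1B, a guanine nucleotide exchange factor of Ras family proteins, had 1415, 752 and 856 normalized counts in the Dox+ libraries, against 193, 87.3 and 50.8 in the Dox- libraries (10.1-fold higher, limma adjusted p = 0.0064). All 3 had Dox+ libraries wholly above the Dox- libraries. PRKG2, a cGMP-dependent kinase gene placed between BMP3 and RASGEF1B, did not pass, with 662, 43.3 and 363 in Dox+ 1, 2 and 3, with 253, 44.4 and 77.7 in Dox- 1, 2 and 3 (limma adjusted p = 0.83, and 0.034 in DESeq2 when blocked by replicate). FGF5 had an adjusted p of 0.0742 or 0.121 with Dox+ 1 or 3 left out and 0.0631 or 0.0665 with Dox- 2 or 3 left out, and CFAP299 had 0.101 or 0.112 with Dox+ 1 or 3 left out. Around the 10 members called with or without the block, 40 neighbours were taken in this way, 32 were tested, and the 3 that were called all lay beside BMP3. Of all genes tested, 2.88% were called in either direction. BMP6, for one, stood between TXNDC5 and SNRNP48, whose log2 fold changes were 0.32 and 0.10 with adjusted p of 0.80 and 0.95.

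In the GDF group, limma called 0 of 4 tested genes, beside 2.88% of all genes (1 at an unadjusted p under 0.05, 0 in edgeR and 1 in DESeq2). GDF6, a ligand needed for joint formation in mice, had 115, 65.8 and 100 normalized counts in Dox+ 1, 2 and 3, against 30.7, 23.7 and 15.9 in Dox- 1, 2 and 3. All Dox+ libraries were above all Dox- libraries, 3.90-fold in the fit, with a limma adjusted p of 0.060, and 0.015 with the replicate block. GDF5, its relative and the classic marker of the joint interzone, had 64.3, 213 and 39.5 normalized counts in Dox+ 1, 2 and 3, with 97.5, 164 and 213 in Dox- 1, 2 and 3. The highest values of the groups were nearly equal, and the estimate leaned the other way from GDF6 without passing (log2 fold change -0.87, SE 0.61, limma adjusted p = 0.77).

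GDF11, which signals through activin type II receptors, had 108, 148 and 105 normalized counts in Dox+ 1, 2 and 3, with 76.6, 111 and 73.4 in Dox- 1, 2 and 3, higher in 3 of 3 pairs with overlapping groups (limma adjusted p = 0.78). GDF15, a distant member that many cells release under stress, had 284, 414 and 358 in Dox+ 1, 2 and 3, with 487, 330 and 298 in Dox- 1, 2 and 3 (log2 fold change -0.06, SE 0.28). GDF10, a relative of BMP3, was under the filter, with 24 reads over the Dox+ libraries and 3 over the Dox- libraries. MSTN (myostatin) had 12 reads over the Dox+ libraries and 13 over the Dox- libraries, and GDF7 was listed at 0 in every library.

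Of the activin and inhibin subunits, 1 of 4 rose and 1 fell, beside 2.52% and 0.357% of all genes. INHBA encodes the beta A subunit, 2 copies of which form activin A. It had 43345, 111599 and 93562 normalized counts in Dox+ 1, 2 and 3, against 3985, 3723 and 9011 in Dox- 1, 2 and 3. Every Dox+ library lay far above every Dox- library, although Dox+ 1 was the lowest of its group. INHBA was 15.0-fold higher (log2 fold change 3.91, SE 0.43, limma adjusted p = 0.0014). Reads of the 4 subunit genes came to 847, 2070 and 2009 CPM in Dox+ 1, 2 and 3, against 86.2, 67.9 and 177 CPM in Dox- 1, 2 and 3.

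INHBE, the beta E subunit best known from liver, went the other way. It had 32.2, 78.6 and 34.9 normalized counts in Dox+ 1, 2 and 3, against 153, 213 and 248 in Dox- 1, 2 and 3. It fell 4.42-fold with no overlap (log2 fold change -2.15, SE 0.43, limma adjusted p = 0.034 or, with the replicate block, 0.0045). The call was lost with Dox+ 1 or 3 left out (adjusted p = 0.122 or 0.172), with Dox- 2 or 3 left out (0.131 or 0.143), in edgeR (0.0582) and without the filter (0.0565). INHBB, the beta B subunit, had 105, 58.3 and 83.7 in Dox+ 1, 2 and 3, with 217, 47.3 and 163 in Dox- 1, 2 and 3, and did not pass (limma adjusted p = 0.86). INHA, the alpha subunit that turns an activin chain into an inhibin, had 28.8, 35.3 and 30.2 in Dox+ 1, 2 and 3, with 44.8, 41.4 and 32.4 in Dox- 1, 2 and 3, lower in each pair with overlapping groups (limma adjusted p = 0.89).

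None of the 7 tested receptor genes was called by limma (0 at an unadjusted p under 0.05, 0 in edgeR, 0 in DESeq2 and 0 with the replicate block). Their log2 fold changes lay between -0.88 and 0.47. BMPR1B, a type I receptor used by GDF5, had the largest estimate, with 72.8, 123 and 126 normalized counts in Dox+ 1, 2 and 3, with 123, 328 and 176 in Dox- 1, 2 and 3. It was lower in each same-numbered pair but the groups overlapped (log2 fold change -0.88, SE 0.43, limma adjusted p = 0.55). BMPR2, the BMP type II receptor, had 6762, 3697 and 6434 in Dox+ 1, 2 and 3, with 5771, 3637 and 2856 in Dox- 1, 2 and 3 (log2 fold change 0.47, SE 0.31).

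ACVR1, a type I receptor for BMPs, had 3209, 2603 and 3342 in Dox+ 1, 2 and 3, with 2780, 2613 and 2400 in Dox- 1, 2 and 3 (log2 fold change 0.23, SE 0.18). ACVR2A, an activin type II receptor, had 736, 564 and 646 in Dox+ 1, 2 and 3, with 811, 528 and 316 in Dox- 1, 2 and 3. BMPR1A, ACVR1B and ACVR2B had log2 fold changes of 0.23, -0.19 and 0.32, each under 1 SE. ACVRL1, a receptor best known from endothelial cells, was under the filter at 0.883 to 6.77 normalized counts in Dox+ libraries and 0 to 10.4 in Dox- libraries.

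The antagonists and binding proteins moved in different directions: of 11 tested, FST rose, CHRD fell and 9 did not pass. All genes gave 2.52% higher and 0.357% lower. FST encodes follistatin, which binds activins tightly. It had 6096, 5993 and 5865 normalized counts in Dox+ 1, 2 and 3, against 866, 148 and 693 in Dox- 1, 2 and 3. The Dox+ libraries were nearly equal, 5984 ± 116 (SD, n = 3), while the Dox- libraries were spread, 569 ± 375 (SD, n = 3). FST was 13.4-fold higher (log2 fold change 3.74, SE 0.56, limma adjusted p = 0.0088 or, with Dox+ 3 left out, 0.0615).

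CHRD encodes chordin, which binds BMP2 and BMP4. It had 264, 267 and 212 normalized counts in Dox+ 1, 2 and 3, against 557, 815 and 747 in Dox- 1, 2 and 3, and no Dox+ library reached the lowest Dox- one. Its log2 fold change was -1.50 (SE 0.25, limma adjusted p = 0.013, and 0.0035 with the replicate block). The adjusted p was 0.0509 or 0.0887 with Dox+ 1 or 3 left out and 0.0689 or 0.052 with Dox- 2 or 3 left out. GREM1, gremlin, another BMP antagonist, had 26474, 15069 and 25066 in Dox+ 1, 2 and 3, with 57034, 36516 and 22508 in Dox- 1, 2 and 3. It was lower in pairs 1 and 2 and higher in pair 3, and did not pass (log2 fold change -0.74, SE 0.36, limma adjusted p = 0.54).

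BAMBI, a membrane pseudoreceptor without kinase activity that dampens TGF-beta and BMP signals, had 151, 351 and 226 normalized counts in Dox+ 1, 2 and 3, against 117, 84.3 and 63.0 in Dox- 1, 2 and 3. The groups did not overlap, with a 2.66-fold estimate, a limma adjusted p of 0.15, and 0.049 with the replicate block. FSTL3, a relative of follistatin, had 10693, 10418 and 11048 in Dox+ 1, 2 and 3, with 7069, 5682 and 9593 in Dox- 1, 2 and 3, also without overlap, at 1.47-fold (limma adjusted p = 0.34). NOG, noggin, had 108, 51.6 and 32.6 in Dox+ 1, 2 and 3, with 49.1, 37.0 and 3.67 in Dox- 1, 2 and 3, higher in each pair with overlapping groups (log2 fold change 1.48, SE 0.90, limma adjusted p = 0.70).

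CHRDL2, a chordin-like protein, had 57.5, 40.6 and 34.9 in Dox+ 1, 2 and 3, with 6.13, 17.7 and 34.2 in Dox- 1, 2 and 3, so the lowest Dox+ and the highest Dox- library all but touched (limma adjusted p = 0.52). CHRDL1, FSTL1, TWSG1 and BMPER had log2 fold changes of 0.42, 0.34, 0.33 and -0.07 and overlapping groups. BMPER had the largest SE of all tested members, 1.03, with 53 reads in each group.

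Changes of a ligand relative to its antagonist were read within each library, where the size factor cancels. The 3 ratios were chosen after the values above were seen. INHBA over FST was 7.11, 18.6 and 16.0 in Dox+ 1, 2 and 3, against 4.60, 25.2 and 13.0 in Dox- 1, 2 and 3. The groups overlapped, and the log2 difference was 0.16 (exact permutation test, two-sided, p = 0.9, n = 3 per group). BMP2 over CHRD was 10.4, 10.1 and 15.7 in Dox+ 1, 2 and 3, against 3.30, 1.71 and 1.69 in Dox- 1, 2 and 3, a log2 difference of 2.47 with no overlap. BMP2 over GREM1 was 0.103, 0.179 and 0.132 in Dox+ 1, 2 and 3, against 0.0322, 0.0382 and 0.0562 in Dox- 1, 2 and 3, a log2 difference of 1.72 with no overlap. For both BMP2 ratios the exact two-sided permutation p was 0.1, the smallest that 3 against 3 libraries allow, and 0.15 when adjusted over the 3 ratios. These permutation tests, like that of INHBA over FST, ignored the pairing by number. Since the ratios were picked with the values known, the p-values do not count as support for a change. The ratios compare libraries and say nothing of amounts of protein.

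**Figure D3:**
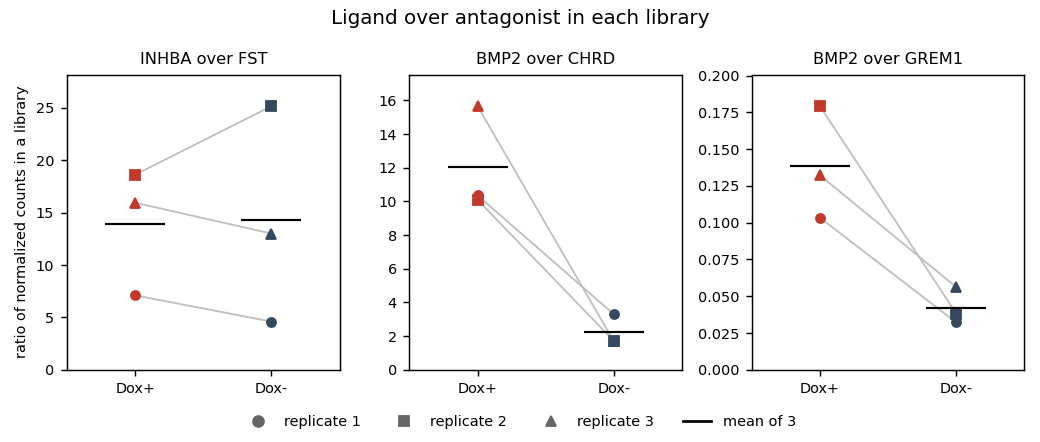
Ratio of the normalized counts of a ligand gene to those of an antagonist gene in each library (y axis, linear, from 0), Dox+ left and Dox- right; shapes are replicates, grey lines join the same number and black bars are means of 3. INHBA over FST overlaps between the groups, while BMP2 over CHRD (10.1 to 15.7 in Dox+, 1.69 to 3.30 in Dox-) and BMP2 over GREM1 do not.

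Of the SMAD genes, 1 of 5 rose and 0 fell, beside 2.52% and 0.357% of all genes. All 5 log2 estimates were above 0, where the median of all genes was -0.00358. SMAD1, a receptor-regulated SMAD of the BMP branch, had 2229, 2223 and 2937 normalized counts in Dox+ 1, 2 and 3, against 1053, 997 and 743 in Dox- 1, 2 and 3. Each Dox+ library was above each Dox- library, 2.65-fold in the fit (SE 0.22 on the log2 scale, limma adjusted p = 0.0092, and 0.0697 with Dox+ 3 left out). SMAD9, the third SMAD of that branch, had 305, 185 and 242 in Dox+ 1, 2 and 3, against 181, 154 and 64.2 in Dox- 1, 2 and 3. It did not overlap between the groups and did not pass (log2 fold change 0.97, SE 0.43, limma adjusted p = 0.48).

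SMAD5, the remaining BMP SMAD, had 6877, 4523 and 6637 in Dox+ 1, 2 and 3, with 5633, 4746 and 3374 in Dox- 1, 2 and 3 (log2 fold change 0.40, SE 0.25). SMAD4, the partner of all receptor-regulated SMADs, had 4620, 3801 and 4460 in Dox+ 1, 2 and 3, with 4485, 4319 and 2360 in Dox- 1, 2 and 3 (log2 fold change 0.26, SE 0.26). For both genes Dox- 3 was the low library. SMAD6, an inhibitory SMAD that BMP signals induce, had 315, 610 and 349 in Dox+ 1, 2 and 3, with 332, 368 and 459 in Dox- 1, 2 and 3. Dox+ 2 alone stood above the rest, and the log2 fold change was 0.09 (SE 0.31).

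The ID genes, which encode dimerization partners that block bHLH transcription factors, gave no call in limma for any of the 4 (0 at an unadjusted p under 0.05, 0 in edgeR, 0 in DESeq2, and 0 with the replicate block in limma). ID2 had 7624, 5788 and 4179 normalized counts in Dox+ 1, 2 and 3, with 4896, 4412 and 2407 in Dox- 1, 2 and 3. It was higher in 3 of 3 pairs and the groups overlapped (log2 fold change 0.61, SE 0.31, limma adjusted p = 0.60, 0.072 with the replicate block, and 0.034 in DESeq2 with the block). ID3 had 704, 2708 and 1012 in Dox+ 1, 2 and 3, with 586, 725 and 882 in Dox- 1, 2 and 3. It was higher in 3 of 3 pairs with overlapping groups, and Dox+ 2 stood far above the rest (log2 fold change 0.79, SE 0.45, limma adjusted p = 0.66).

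ID1 had 2274, 5036 and 3188 in Dox+ 1, 2 and 3, with 1818, 2113 and 4892 in Dox- 1, 2 and 3, with 1 high library on each side (log2 fold change 0.32, SE 0.41, limma adjusted p = 0.89). ID4 had 57.5, 60.5 and 65.1 in Dox+ 1, 2 and 3, against 52.1, 23.7 and 34.2 in Dox- 1, 2 and 3. It was higher in 3 of 3 pairs, with no overlap (log2 fold change 0.79, SE 0.43, limma adjusted p = 0.64). Although Dox+ 2 was the highest Dox+ library for ID1 and ID3, it was the highest for 14 of the 40 tested members (35.0%), beside 38.55% of all genes, and the lowest for 17 (42.5%), beside 39.03% of all genes.

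**Figure D4:**
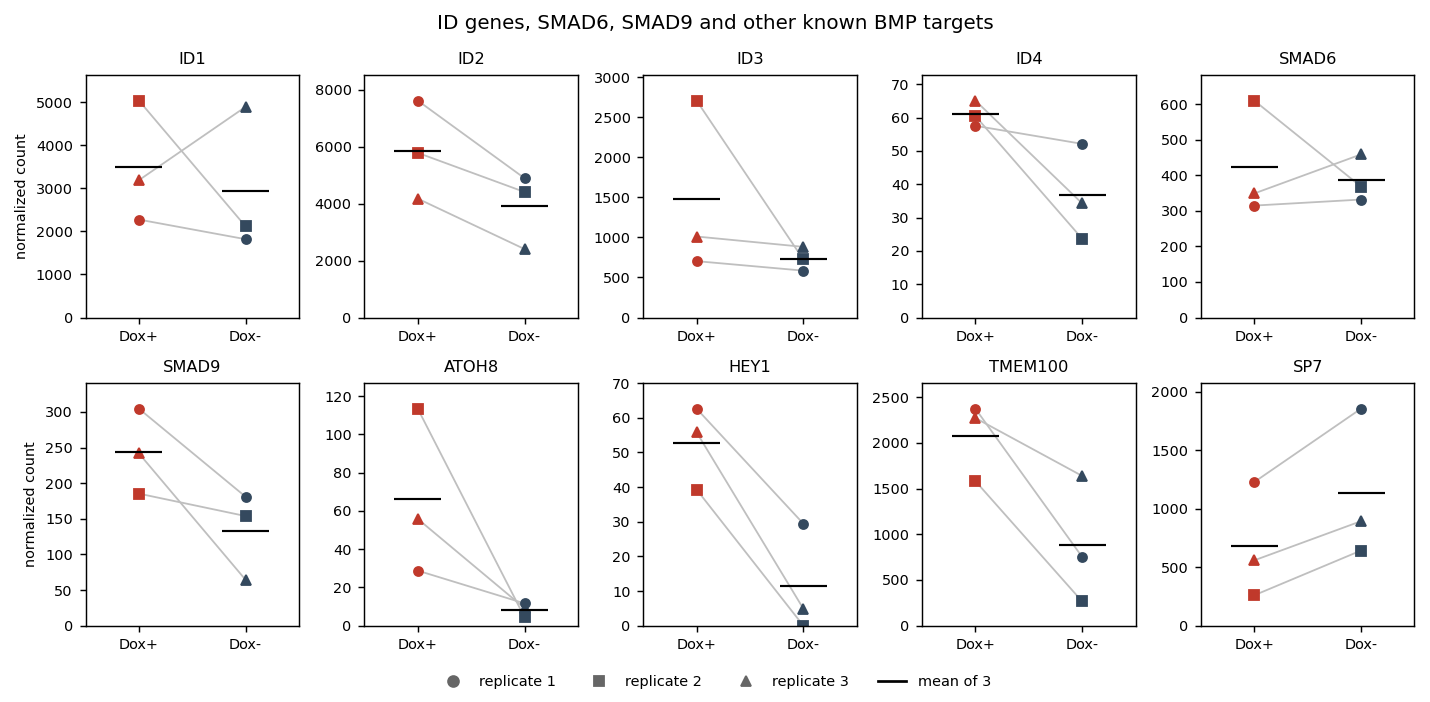
Normalized counts (y axis, linear, from 0) of the 4 ID genes, SMAD6, SMAD9 and 4 further BMP target genes in Dox+ (red, left) and Dox- (dark, right) libraries; shapes are replicates, grey lines join the same number and black bars are means of 3. ID1, ID2, ID3 and SMAD6 overlap between the groups, ATOH8 and HEY1 do not, and Dox+ 2 is the high square for ID1, ID3, SMAD6 and ATOH8.

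A second list took 75 other genes of the pathway, of which 71 had a row and 51 were tested. Limma called 3 higher (5.88%, beside the 2.88% of all genes in either direction) and 0 lower, with 11 higher and 2 lower at an unadjusted p under 0.05, where all genes gave 7.02% and 3.57%, so that the 2 lower of 51 were near the background. No gene was lower in edgeR and 1 was in DESeq2. PCSK5, a proprotein convertase that cuts TGF-beta family precursors, had 2395, 2699 and 2260 normalized counts in Dox+ 1, 2 and 3, against 620, 620 and 562 in Dox- 1, 2 and 3 (4.07-fold higher, limma adjusted p = 0.00046). VWC2, a secreted BMP antagonist also named brorin, had 235, 457 and 258 in Dox+ 1, 2 and 3, against 72.4, 63.6 and 63.6 in Dox- 1, 2 and 3 (4.51-fold higher, limma adjusted p = 0.010, and 0.0593 with Dox+ 3 left out). For both genes the Dox- libraries were close to one another and far below the Dox+ libraries.

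SOSTDC1, a secreted antagonist of BMP and Wnt signals, had 697, 954 and 1167 in Dox+ 1, 2 and 3, against 14.7, 13.3 and 180 in Dox- 1, 2 and 3. It was 26.7-fold higher (log2 fold change 4.74, SE 0.86, limma adjusted p = 0.021 or, with the replicate block, 0.00048), with Dox- 3 well above its group. The adjusted p was 0.0569, 0.0556 or 0.134 with Dox+ 1, 2 or 3 left out, 0.0689 with Dox- 2 left out and 0.0889 in edgeR.

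With the replicate block, 6 of the 51 genes were higher and 2 were lower, beside 4.86% and 1.65% of all genes. The added ones held 4 known BMP targets. ATOH8, a bHLH factor, had 28.8, 113 and 55.8 normalized counts in Dox+ 1, 2 and 3, against 11.7, 4.44 and 9.17 in Dox- 1, 2 and 3 (adjusted p = 0.077, and 0.028 with the block). It passed the filter on low values through the Dox+ libraries alone. HEY1, a transcriptional repressor also induced by Notch, had 62.6, 39.3 and 55.8 in Dox+ 1, 2 and 3, against 29.4, 0 and 4.89 in Dox- 1, 2 and 3 (adjusted p = 0.26, and 0.031 with the block). TMEM100, a membrane protein, had 2374, 1582 and 2272 against 752, 265 and 1638 in the Dox- libraries, where Dox- 3 overlapped the Dox+ range (adjusted p = 0.29, and 0.018 with the block).

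SP7, the osteoblast factor osterix, was lower in each pair, with 1227, 260 and 558 in Dox+ 1, 2 and 3, against 1854, 642 and 893 in Dox- 1, 2 and 3 (adjusted p = 0.74, and 0.045 with the block). PMEPA1, a TGF-beta-induced inhibitor of SMAD2 and SMAD3, had 4924, 7557 and 6223 in Dox+ 1, 2 and 3, against 9765, 10458 and 20041 in Dox- 1, 2 and 3 (adjusted p = 0.14, and 0.022 with the block). Among 12 tested genes listed as BMP targets, 3, with ATOH8 among them, were higher and 1 was lower with the block (4.86% and 1.65% of all genes), and blocked edgeR gave 2 higher and 0 lower, with HEY1 at 0.093 and SP7 at 0.0535. Limma without the block called 0 of them. At an unadjusted p under 0.05 it had 5 higher and 0 lower, beside 7.02% and 3.57% of all genes. There were 0 calls in edgeR, 1 in DESeq2, and 5 higher and 1 lower in DESeq2 with the block. Those fits called 2.6%, 5.33% and 7.96% of all genes in either direction.

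In the authors' deposited table, 9 of the 44 members with an adjusted p were under 0.05 and higher and 2 were lower, beside 7.3% of all genes with an adjusted p in that table. The 10 members called by limma without or with the block were all among them, and the other one was ID2 (adjusted p = 0.0456 in the authors' deposited table).

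Since whole cultures were sequenced, fewer cells of a type and less RNA per cell cannot be told apart. Defining chondrocyte genes were present in every library, summing to between 103603 and 119887 normalized counts in Dox+ libraries and between 154089 and 300999 in Dox- libraries over 8 genes, of which ACAN and COL9A1 were called lower and MATN3 higher. COL2A1 was lower in 3 of 3 pairs (adjusted p = 0.22, and 0.0023 with the block). The call of ACAN was lost with Dox+ 1 or 3 left out (0.105 or 0.172) and with Dox- 2 or 3 left out (0.119 or 0.138), and that of MATN3 with Dox+ 3 left out (0.0593). Of 6 deep zone and pre-hypertrophic markers, 3 were tested. ALPL was 6.75-fold lower and PTH1R 2.36-fold lower, both without overlap (adjusted p = 0.17 and 0.096, and 0.00031 and 0.018 with the block). SPP1 overlapped between the groups (adjusted p = 0.80). The hypertrophic marker COL10A1 had 16 reads over the Dox+ libraries and 0 over the Dox- libraries, IHH had 0 and 3, and IBSP had at most 4.41 normalized counts in Dox+ and 3.68 in Dox- libraries. The markers of leukocytes and macrophages summed to between 751 and 1611 in Dox+ libraries and between 256 and 525 in Dox- libraries over 8 genes. CD74 alone was called there (7.78-fold higher, adjusted p = 0.0621 with Dox+ 3 left out), ITGAM was at 0 throughout, and PTPRC reached at most 2.33 in Dox+ and 1.84 in Dox- libraries. Smooth muscle and pericyte markers summed to between 6241 and 17153 in Dox+ libraries and between 1546 and 6891 in Dox- libraries over 6 genes. MCAM was called higher (41.9-fold), but it passed the filter on low values through the Dox+ libraries alone. MYH11 was at 8.46 or less, and DES was higher in 3 of 3 pairs (adjusted p = 0.36, and 0.0014 with the block). Endothelial markers summed to between 158 and 226 in Dox+ libraries and between 136 and 297 in Dox- libraries, with CLDN5 and ESAM at 0. Skeletal muscle markers summed to at most 37.1 in Dox+ and 39.1 in Dox- libraries, with ACTA1 at 0. Markers of osteoblasts and osteocytes summed to between 303 and 1269 in Dox+ libraries and between 669 and 1888 in Dox- libraries, with DMP1 at 0, and those of synovial fibroblasts to between 64028 and 84287 in Dox+ libraries and between 77317 and 106668 in Dox- libraries. Of the synovial fibroblast markers, THY1 was lower and DPT higher with the block only (adjusted p = 0.15 and 0.072, and 0.0049 and 0.0014 with the block). Superficial zone markers summed to between 297925 and 655540 in Dox+ libraries and between 38592 and 109255 in Dox- libraries over 4 genes. Of these, PRG4, SEMA3A and the induced gene CREB5 itself were called higher, and CLU was not called. The part of all these markers in the results above was not tested.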

How the data were processed

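Trizol RNA of 3 Dox+ and 3 Dox- cultures was made into libraries with the KAPA mRNA HyperPrep kit, per the labels' protocols, and samples were grouped and numbered by sample title. The deposited signal is a table of counts that the authors had divided by 1 size factor per library. Per the submitters' processing notes, the tools were STAR 2.5.2b, FastQC 0.11.3, DESeq2, Salmon and MultiQC 1.2 (in no given order), with genome names bosTau9 and ARS-UCD1.2. Neither annotation version nor strand setting is stated. The authors' deposited comparison table gives log2 fold changes and p-values; shrinkage of the fold changes is not stated.

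All values above 0 were whole multiples of 1 step per library (100% within 0.01 read), so reads were recovered. In R 4.3.3, limma 3.58.1 (trended eBayes after lmFit, two-sided tests, Benjamini-Hochberg adjustment) was run on log2(normalized count + 1) with group as the only term, in genes with a mean of at least 10. edgeR 4.0.16 (quasi-likelihood) and DESeq2 1.42.0 were run on recovered reads as alternatives. The fits were also run on simulated counts with known changes. Those counts held no pairing between libraries, so they did not check the fits under the pairing of these data. Deviations from group means correlated at 0.646, 0.443 and 0.212 between libraries numbered 1, 2 and 3. The numbers were therefore taken as pairs in the fits with the replicate block, but not in the main fit. Between libraries with unlike numbers the correlations ran from -0.59 to 0.183. The highest of these, of Dox+ 2 with Dox- 3, was close to that of pair 3. For members called by neither limma fit, the adjusted p could be much lower with the block. It was 0.54 without and 0.18 with it for GREM1, 0.70 and 0.16 for NOG, and 0.55 and 0.15 for BMPR1B. Replicates differed by more than sampling noise (chi-square per degree of freedom 54.8 to 414). The p-values reflect the spread between these cultures, and intervals of 3 reads cover counting error only.

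The members, the gene lists and the naming rule were chosen with earlier results of these data known. Named were members called without or with the block, up to 4 more per role by smallest p, and up to 8 further pathway genes that were called. No genome of the files' build and no sequence table was used here. RefSeq's ARS-UCD2.0 table was used only for names and gene order.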

Additional observations from a re-analysis of the deposited data

How the results depend on the processing

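Members called higher numbered 6, and 3 to 6 with 1 library left out; members called lower numbered 2, and 0 to 2 with 1 library left out, 1 in edgeR and 1 without the filter. With the replicate block they were 8 and 2. Further pathway genes called higher numbered 3, and 6 with the replicate block, 5 in edgeR with the block, 5 in DESeq2, 10 in DESeq2 with the block and 1 to 4 with 1 library left out; those called lower numbered 0, and 2, 1, 1 and 2 in the same fits. Over all genes, 332 higher and 47 lower became 640 and 218 with the block, 591 and 190 in edgeR with the block, 542 and 159 in DESeq2, 743 and 306 in DESeq2 with the block, and 139 to 365 and 9 to 72 with 1 library left out. The members' median log2 fold change was 0.23 to 0.45 with 1 library left out. Pseudocounts of 0.5 and 5, a mean of at least 50 and TMM scaling changed no call of a member they tested. The block changed calls of GDF6, BAMBI, ATOH8, HEY1, TMEM100, SP7 and PMEPA1 among the members, named pathway genes and BMP3 neighbours, and no other call there. Among members that were not called, log2 fold changes crossed 0 when 1 library was left out, with these ranges over the 6 fits: BMP4 -0.049 to 0.31, GDF15 -0.20 to 0.15, BMPR1A -0.12 to 0.46, ACVR2A -0.021 to 0.66, CHRDL1 -0.22 to 0.93, BMPER -1.11 to 0.86, TWSG1 -0.054 to 0.58, SMAD4 -0.041 to 0.42 and SMAD6 -0.21 to 0.27. The causes were not tested. Fits with 1 library left out ignore the pairing. BMP7, GDF10 and MSTN had few reads, and Dox+ 3 was the library with the least depth. The part of depth in their low counts was not tested.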

Other observations

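Within the Dox- group, Dox- 3 was the lowest library for 21 of the 40 tested members (52.5%), where it was the lowest for 36.0% of all genes tested, and Dox- 1 was the highest for 23 (57.5%, against 34.85% of all genes). Reads of all 45 members together came to 4063, 4674 and 5189 CPM in Dox+ 1, 2 and 3, against 3183, 2408 and 2116 CPM in Dox- 1, 2 and 3. Much of this gap lay in the activin and inhibin subunits, where nearly all reads were of INHBA. Those subunits held 847, 2070 and 2009 CPM in Dox+ 1, 2 and 3, against 86.2, 67.9 and 177 in Dox- 1, 2 and 3. Reads of the antagonists and binding proteins came to 2378, 1868 and 2279 CPM in Dox+ 1, 2 and 3, with 2432, 1837 and 1464 in Dox- 1, 2 and 3, and those of the ID genes 208, 252 and 181 in Dox+ 1, 2 and 3, against 144, 123 and 154 in Dox- 1, 2 and 3. These values were not tested.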
